A study of Beta vulgaris subsp. vulgaris with 30 samples.

Results

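Divergent neighbour genes are adjacent genes that lie head to head, the left one read from the minus strand and the right one from the plus strand, so that both are transcribed outward from the stretch between their starts. In the sugar beet annotation used for these libraries, 85 such pairs, holding 170 genes, had starts 1 to 1000 bases apart. They were found among 21563 adjacent pairs on chromosomes 1 to 9 by sorting the genes of the count table by position and taking each pair with a minus-strand gene on the left, a plus-strand gene on the right, and a right start minus left end of 1 to 1000. At the same spacing there were 832 convergent pairs, whose ends face each other, and 498 pairs on the same strand, and these served as the comparison. No measured value entered the choice of pairs.

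A short stretch between divergent starts can act as a bidirectional promoter, in which one open region of chromatin serves transcription in both directions. In plants, as in yeast and mammals, some genes arranged in this way share regulators and are expressed together, while others are expressed independently. Same-strand neighbours can instead be linked by read-through, and convergent neighbours meet only at their ends.

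RNA came from shoots of Beta vulgaris subsp. vulgaris in 5 groups of 6 libraries each: plants before pretreatment, plants pretreated for 3 days with water or with ethanol, and plants given either pretreatment and then frozen. No genetic modification or cultivar is named, and the labels of the frozen groups carry a time of 2 h. In the series text the seedlings were 7 days old, the pot base stood in 80 mM ethanol and the overnight temperature was -2.1 to -3.5 °C. The protocol of each sample instead describes Arabidopsis of 14 days, 20 mM ethanol for 6 days and -4 °C, so dose and temperature are uncertain. The labels state no hour of sampling. An effect of freezing and one of the hour cannot be told apart, and neither can an effect of pretreatment and one of 3 days of growth. Nothing says that replicates were separate cultures. The p-values then reflect only how much these samples varied, which may be technical.

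Total counts ran from 3379082 to 17868082 per library, and the lowest total belonged to ethanol replicate 4. On principal components of log2 CPM (a gene's count relative to the scaled total of its library), that library lay alone on the second component, at 154.4 against at most 17.12 for the others, and water replicate 3 lay alone on the fourth, at 121.3 against at most 26.87. On the first component the frozen libraries lay at 13.82 to 65.98 and the unfrozen ones at -66.13 to -16.3, and frozen water replicate 6 was the frozen library nearest to the unfrozen ones. The 170 genes took 1.00% to 2.02% of the counts of a library, and 76.3% of those counts came from Bevul.5G127500 and Bevul.1G216800.

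Close divergent starts were few in these gene models. Of 5075 divergent adjacent pairs at any spacing, 11 were spaced 1 to 250 bases, 23 were spaced 251 to 500, 51 were spaced 501 to 1000 and 210 were spaced 1001 to 2000. Convergent pairs, of which there were 5076, numbered 146, 177, 509 and 786 in the same ranges. The median spacing of the 85 divergent pairs was 607 bases, from 1 to 994. Chromosomes 2 and 9 held 35 of them (16 and 19), or 41.2%, and chromosome 6 held 2. Same-strand pairs at this spacing were also many there, with 268 of the 498 (53.8%) on chromosomes 2 and 9.

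**Figure D1:**
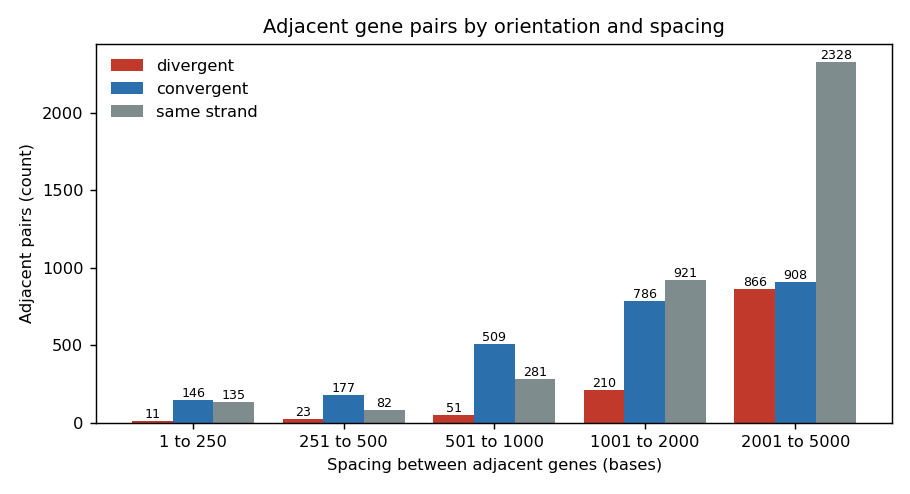
Number of adjacent gene pairs (vertical axis, count) by spacing in bases (horizontal axis) for divergent, convergent and same-strand pairs. Divergent pairs are the fewest in each range shown, with 11, 23 and 51 in the 3 ranges up to 1000 bases.

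The models themselves limit what a spacing means. By position, 67.1% of the 170 genes matched a RefSeq gene of the EL10.2 assembly and 56 did not, against 75.4% matched among all genes on these chromosomes. Each of 2 matched models had to cover at least 50% of the other. All matched genes were protein coding and none carried a symbol, so no gene is given a name or a role here. In the 39 pairs with both genes matched, the RefSeq spacing had a median of 680 bases. It was 1 to 1000 bases in 30 of them, over 1000 in 8 and an overlap in 1. No RefSeq gene lay between the genes of a pair.

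Most close divergent pairs had at most 1 gene with enough reads to test. Both genes passed the filter on low counts in 28 of the 85 pairs (32.9%), 1 gene passed in 41 pairs (48.2%) and neither in 16 (18.8%). Both genes passed in 57.7% of the convergent pairs, 43.4% of the same-strand pairs and 45.7% of all adjacent pairs. In all, 97 of the 170 genes were tested (57.1%, against 65.5% of the genes on these chromosomes), and 22 had no read in any of the 30 libraries. In the 41 pairs with 1 tested gene, the untested partner held a median of 17 reads over all 30 libraries, at most 174, and no read at all in 13 pairs. The tested partner had a median level of 8.12 CPM, up to 354. The untested side of these pairs was therefore near the floor of detection, where a change could not be seen at this depth. Some tested partners were low too, such as Bevul.7G098800 at 0.710 CPM, with 227 reads over all libraries.

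Where both genes were tested, their levels were often far apart. Per kilobase of gene span (introns included), the higher gene of a pair exceeded the lower by a median of 5.64-fold, from 1.20-fold to 3255-fold, and by at least 10-fold in 10 of the 28 pairs (35.7%). The median was 5.30-fold in convergent and 6.09-fold in same-strand pairs, with 35.4% and 36.6% at 10-fold or more. Whether counts scale with gene span in these libraries was not tested, so levels per kb are rough. If they do not, gene length distorts these levels and the folds and 10-fold shares built on them. The widest gap was that of Bevul.1G216800, at 1944 CPM per kb, over Bevul.1G216900, at 0.597 CPM per kb, whose starts are 974 bases apart. Bevul.5G127500, the most abundant of the 170 genes at 5640 CPM, stood at 1079 CPM per kb beside Bevul.5G127400 at 2.05 CPM per kb, 451 bases away. These pairs, and the genes below that are not among the pairs chosen by rule, were picked with their values in view.

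Freezing changed 16 of the 97 tested genes after water (6 higher, 10 lower) and 15 after ethanol (6 higher, 9 lower), by edgeR's quasi-likelihood test with a Benjamini-Hochberg adjusted p under 0.05 over 14128 genes. These are 16.5% and 15.5% of the tested members, against 11.1% and 12.3% of all genes tested. The shares do not show a stronger response. The median absolute log2 change of the members was 0.401 after water and 0.442 after ethanol, against 0.443 and 0.457 over all genes. Tested members also had a higher median level, 8.98 CPM against 6.11 CPM. Why the shares differ was not tested. The median log2 change over the 97 was 0.02 after water and -0.04 after ethanol, against 0.08 and 0.09 over all genes. In 11 genes the change passed in both comparisons, 4 higher and 7 lower in both, and 20 passed in at least 1. Ranges of the frozen and unfrozen groups did not overlap in 10 of the 16 and in 10 of the 15. Shared calls and ranges were not counted over all genes, so these numbers are not shown to be particular to divergent pairs. In whole shoots a lower level cannot be separated into fewer cells of a type and less RNA per cell.

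**Figure D2:**
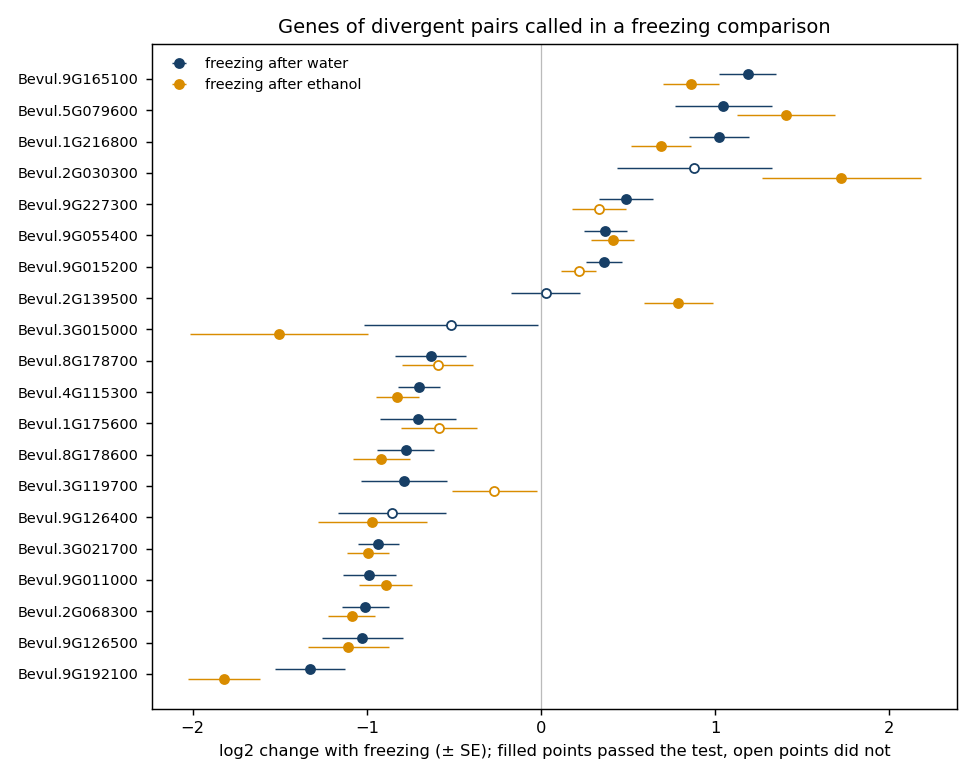
Change with freezing on the log2 scale (horizontal axis, ± SE) for the 20 genes of divergent pairs that passed the test after water or after ethanol. Filled points passed and open points did not. Each gene has both estimates on the same side of 0, that of Bevul.2G139500 after water lying nearest to it at 0.03.

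Among the genes that rose, Bevul.9G165100 (chromosome 9, 47818089 to 47821754, minus strand) ran from 44.5 to 87.7 CPM after water, median 63.6, and from 107.96 to 170 CPM in frozen water plants, median 151. After ethanol it ran from 51.9 to 79.4 CPM, median 75.3, and with freezing from 106.2 to 150.1 CPM, median 129.1. Every frozen library lay above every unfrozen one. The log2 changes were 1.19 ± 0.16 (SE, adjusted p = 1.79e-06, edgeR) and 0.86 ± 0.16 (adjusted p = 0.000149, edgeR). Its partner Bevul.9G165200, which starts 572 bases away, stayed between 0.217 and 7.92 CPM over all 30 libraries and did not pass.

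Bevul.1G216800 held 2869 to 5080 CPM after water, median 3451, and 4168 to 9295 CPM in frozen water plants, median 7524. After ethanol it held 2811 to 5527 CPM, median 4148, and with freezing 4834 to 8286 CPM, median 6829. The groups overlapped through the highest unfrozen and the lowest frozen libraries, and the lowest frozen water value was that of replicate 6. The log2 changes were 1.02 ± 0.17 (adjusted p = 4.89e-05, edgeR) and 0.69 ± 0.17 (adjusted p = 0.00501, edgeR). Bevul.5G079600 rose by 1.05 ± 0.28 and 1.41 ± 0.28 on the log2 scale, beside a partner with no read in any library. Bevul.9G055400 rose by 0.37 ± 0.12 and 0.41 ± 0.12, but its call after water was lost in 12 of 17 alternative settings.

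Among the genes that fell, Bevul.3G021700 (chromosome 3, 2624624 to 2629462, minus strand) ran from 78.8 to 101.7 CPM after water, median 89.9, and from 42.5 to 54.2 CPM with freezing, median 45.4. After ethanol the ranges were 74.1 to 104.6 CPM and 42.3 to 49.8 CPM. Neither comparison had overlapping libraries, and the log2 changes were -0.93 ± 0.12 (adjusted p = 6.58e-07, edgeR) and -0.99 ± 0.12 (adjusted p = 1.62e-07, edgeR). Bevul.2G068300 fell by 1.01 and 1.09 on the log2 scale (both SE 0.14), and Bevul.4G115300 fell by 0.70 and 0.82 (both SE 0.12). The partners of these last 2 genes did not pass the filter on low counts.

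The central comparison asked whether the genes of a close divergent pair changed together. After water, 1 of the 28 pairs had both genes called in the same direction, 0 had genes called in opposite directions and 9 had 1 gene called. Among all 9859 adjacent pairs with both genes tested, 1.07% had both called in the same direction, 0.639% in opposite directions and 19.5% had 1 called. After ethanol the 28 pairs again gave 1 in the same direction, 0 in opposite directions and 7 with 1 called, against 1.1%, 0.7% and 21.4% of all adjacent pairs. Convergent pairs gave 5 same and 2 opposite of 480 after water and 4 and 6 after ethanol, and same-strand pairs gave 4 same and 1 opposite of 216 in each comparison. Pairs with 1 gene called after water made up 32.1% of the divergent, 21.5% of the convergent and 21.3% of the same-strand pairs, and after ethanol 25.0%, 25.4% and 23.1%. The difference between orientations was not tested, and the divergent same-direction share of 3.57% is 1 pair of 28. Estimated changes had the same sign in 57.1% of the divergent pairs in both comparisons, whatever their p. That share was 48.1% and 50.2% in convergent pairs, 56.5% and 56.5% in same-strand pairs, and 52.4% and 52.5% in all adjacent pairs. The share was farthest apart between orientations for water pretreatment, where none of the 28 divergent pairs with both genes tested had a gene called. It was 71.4% of these divergent pairs (20 of 28), 51.5% of the convergent, 55.1% of the same-strand and 51.8% of all adjacent pairs. For ethanol pretreatment, which shares the libraries from before pretreatment, it was 53.6%, 52.5%, 58.3% and 51.1%. These shares are descriptions with no test.

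**Figure D3:**
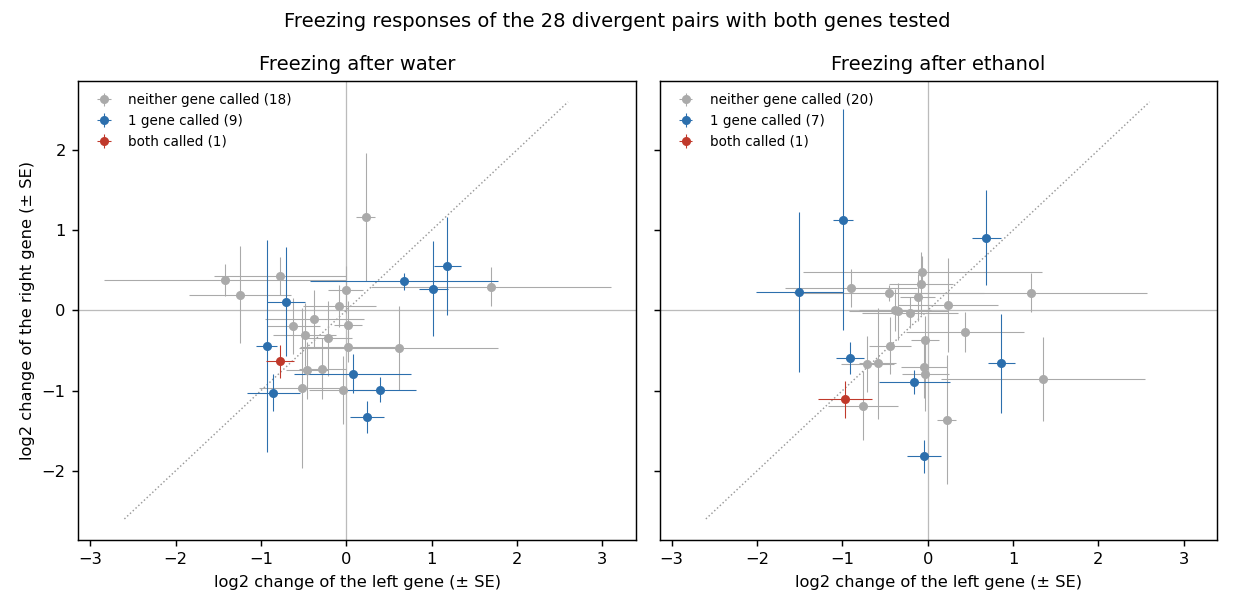
log2 change with freezing of the left gene (horizontal axis, ± SE) against that of the right gene (vertical axis, ± SE) for the 28 divergent pairs with both genes tested, after water and after ethanol; the dotted line marks equal change. One pair in each panel had both genes called, with 9 and 7 pairs in which 1 gene was called and 18 and 20 in which neither was.

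The pair called on both sides after water was Bevul.8G178600 and Bevul.8G178700 (chromosome 8, 56532763 to 56534857 on the minus strand and 56535084 to 56539492 on the plus strand). Their starts are 227 bases apart in these models and 45 bases apart in RefSeq. Bevul.8G178600 ran from 314 to 622 CPM before pretreatment, median 502, from 479 to 634 CPM after water, median 544, and from 464 to 705 CPM after ethanol, median 556. With freezing it ran from 217 to 371 CPM after water, median 326, and from 203 to 396 CPM after ethanol, median 285. All 12 frozen libraries lay below all 12 pretreated unfrozen ones.

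Bevul.8G178700 ran from 22.9 to 48.0 CPM before pretreatment, median 30.3, from 31.1 to 44.1 CPM after water, median 34.2, and from 18.8 to 42.6 CPM after ethanol, median 41.8. With freezing it ran from 17.9 to 27.3 CPM after water, median 24.0, and from 16.1 to 31.8 CPM after ethanol, median 24.1. The frozen and unfrozen water ranges did not overlap, while those after ethanol did. Both genes had their lowest group medians in the 2 frozen groups, at overall levels of 210 and 7.01 CPM per kb.

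After water the left gene fell by 0.78 ± 0.16 on the log2 scale (adjusted p = 0.000872, edgeR) and the right gene by 0.63 ± 0.20 (adjusted p = 0.0365, edgeR). After ethanol the left gene fell by 0.92 ± 0.16 (adjusted p = 9.31e-05, edgeR), while the right gene's change of -0.59 ± 0.20 just missed the threshold (adjusted p = 0.0502, edgeR). The difference between the changes of the 2 genes, from the log2 ratio of their counts within each library, was -0.16 (95% interval -0.66 to 0.34) after water and -0.38 (-0.88 to 0.12) after ethanol. These intervals leave room for unequal change. The call of Bevul.8G178700 after water was lost in 7 of 17 alternatives, with adjusted p up to 0.0988: with no filter on low counts, and without water replicate 5 or 6 or frozen water replicate 2, 3, 4 or 5.

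The pair called on both sides after ethanol was Bevul.9G126400 and Bevul.9G126500 (chromosome 9, 41689136 to 41689543 on the minus strand and 41690433 to 41691749 on the plus strand), 890 bases apart. Bevul.9G126400 ran from 20.8 to 36.5 CPM after water, median 25.4, from 7.51 to 26.3 CPM after water and freezing, median 14.0, from 7.92 to 22.3 CPM after ethanol, median 19.4, and from 5.30 to 15.4 CPM after ethanol and freezing, median 8.97. Bevul.9G126500 ran from 45.7 to 67.7 CPM after water, median 56.8, from 17.8 to 36.4 CPM after water and freezing, median 26.7, from 44.5 to 59.5 CPM after ethanol, median 55.8, and from 11.2 to 44.3 CPM after ethanol and freezing, median 24.4. Frozen libraries lay below unfrozen ones throughout for the right gene and overlapped them for the left gene.

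The left gene fell by 0.97 ± 0.31 on the log2 scale after ethanol (adjusted p = 0.0353, edgeR), and its change after water was -0.85 ± 0.31 (adjusted p = 0.0725, edgeR). The right gene fell by 1.11 ± 0.23 after ethanol (adjusted p = 0.000723, edgeR) and by 1.03 ± 0.23 after water (adjusted p = 0.00187, edgeR). The difference between the 2 changes was 0.28 (95% interval -0.45 to 1.01) after ethanol and 0.12 (-0.61 to 0.85) after water. Leaving out any of 9 of the 12 compared libraries ended the call of Bevul.9G126400, the exceptions being ethanol replicates 4 and 6 and frozen ethanol replicate 5, with adjusted p up to 0.0921. Its model is 408 bases long, as are 3 others from Bevul.9G126400 to Bevul.9G126900. If these are near-identical copies, reads could be divided among them, so its counts are uncertain.

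**Figure D4:**
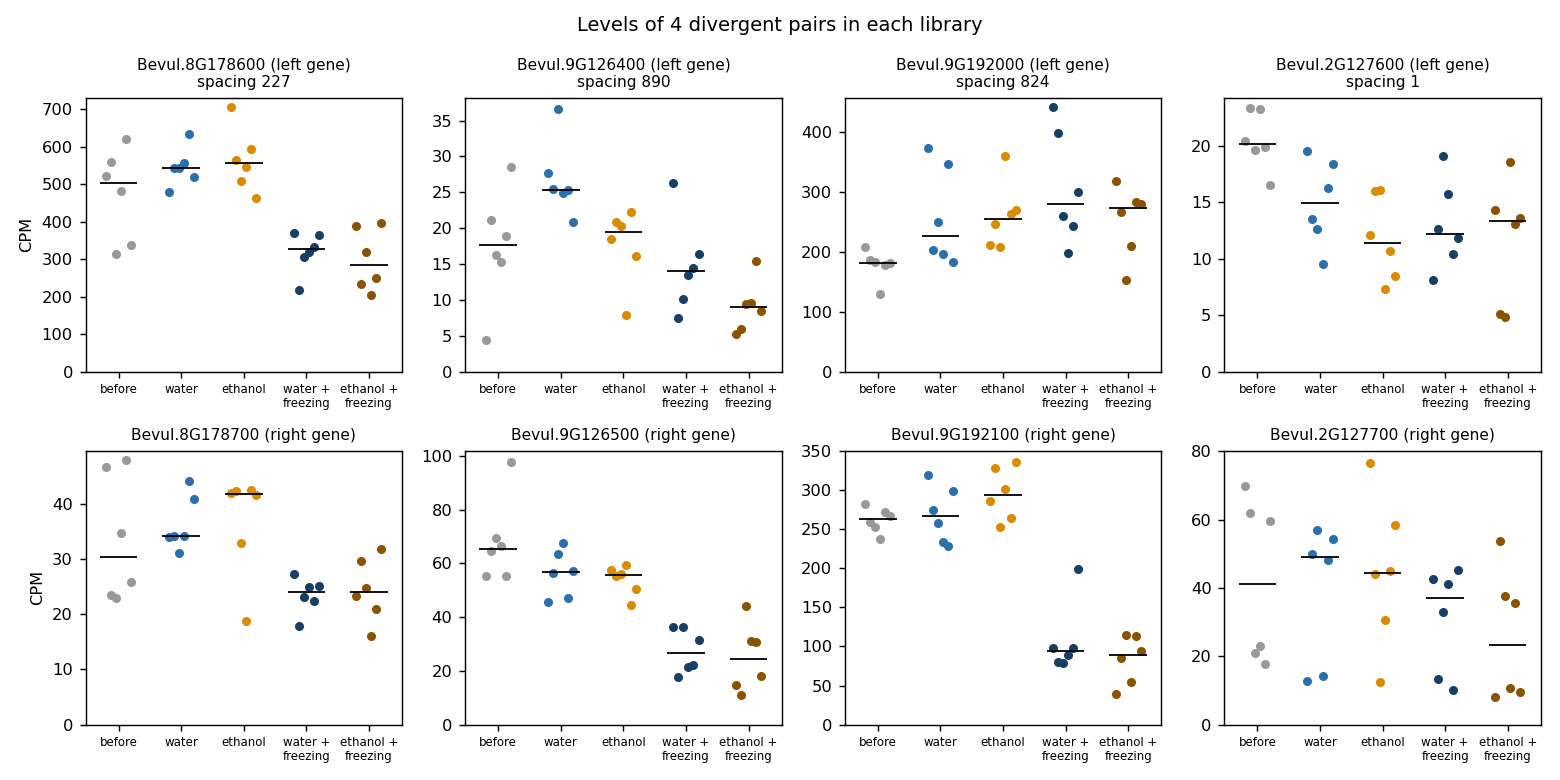
Level in CPM (vertical axes, linear and starting at 0) in each of the 6 libraries of the 5 groups for the left gene (top) and right gene (bottom) of 4 divergent pairs; lines are group medians. Both genes of the first 2 pairs have lower medians with freezing, as has the right gene of the third (median 93.6 CPM frozen against 266 CPM after water), and the right gene of the fourth varies from 8.05 to 76.7 CPM within the series.

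Unequal change within a pair was tested directly on the log2 ratio of left to right counts, with limma over the 724 close pairs of all orientations. It passed in 2 of 28 divergent pairs after water and 1 of 28 after ethanol, against 6.22% and 8.29% of the 724 pairs. In the remaining divergent pairs the 95% intervals were wide, with a median half-width of 1.41 after water and 1.40 after ethanol on the log2 scale. Only 2 of the 28 pairs in each comparison had an interval inside -1 to 1, so for most pairs neither equal nor unequal change is shown.

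The pair called in both comparisons was Bevul.9G192000 and Bevul.9G192100 (chromosome 9, 50522934 to 50527595 on the minus strand and 50528419 to 50533217 on the plus strand), 824 bases apart here and 1380 in RefSeq. Its mean levels were close, at 251 and 203 CPM, or 53.9 and 42.3 CPM per kb. Bevul.9G192100 ran from 228 to 319 CPM after water, median 266, and from 78.2 to 199 CPM after freezing, median 93.6. After ethanol it ran from 253 to 335 CPM, median 294, and with freezing from 38.8 to 113.997 CPM, median 89.6. Every frozen library lay below every unfrozen one, although frozen water replicate 6, at 199 CPM, stood apart from the other 5 frozen water libraries.

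Bevul.9G192000 ran from 184 to 374 CPM after water, median 227, and from 198 to 442 CPM with freezing, median 280. After ethanol it ran from 208 to 360 CPM, median 255, and with freezing from 153 to 319 CPM, median 274. Frozen and unfrozen libraries overlapped in both comparisons. The right gene fell by 1.33 ± 0.20 on the log2 scale after water (adjusted p = 9.16e-06, edgeR) and by 1.82 ± 0.21 after ethanol (adjusted p = 5.96e-08, edgeR). The left gene's changes were 0.24 ± 0.19 (adjusted p = 0.551, edgeR) and -0.04 ± 0.19 (adjusted p = 0.942, edgeR).

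The left gene's change exceeded the right gene's by 1.64 after water (95% interval 0.94 to 2.34, adjusted p = 0.00355, limma) and by 1.86 after ethanol (1.15 to 2.56, adjusted p = 0.00171, limma). The 3′ end of Bevul.9G192000 overlaps Bevul.9G191900 by 741 bases, which makes the left gene's counts uncertain. The call of Bevul.9G192100 held in all 17 alternatives of each comparison.

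The other unequal pair after water was Bevul.9G010900 and Bevul.9G011000, 961 bases apart here and 1159 in RefSeq. Both unequal pairs thus lie more than 1000 bases apart in RefSeq. Bevul.9G011000 (chromosome 9, 1773354 to 1777766, plus strand) ran from 178 to 233 CPM before pretreatment, median 198, from 107.5 to 177 CPM after water, median 146, and from 114.9 to 154 CPM after ethanol, median 135. With freezing it ran from 52.7 to 117.4 CPM after water, median 66.5, and from 59.9 to 85.7 CPM after ethanol, median 75.05. Its level was thus highest before pretreatment and lowest with freezing.

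It fell by 0.99 ± 0.15 with freezing after water (adjusted p = 1.1e-05, edgeR) and by 0.89 ± 0.15 after ethanol (adjusted p = 4.43e-05, edgeR). Its partner Bevul.9G010900, at 0.683 to 8.22 CPM over all libraries, had changes of 0.40 ± 0.42 and -0.16 ± 0.42. The difference within the pair was 1.71 after water (95% interval 0.80 to 2.62, adjusted p = 0.0189, limma) and 0.89 after ethanol (-0.02 to 1.80, adjusted p = 0.223, limma).

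In the pairs with 1 gene called, the uncalled partner was mostly at a low level. After water its mean level had a median of 2.57 CPM over the 9 pairs and was under 5 CPM in 7 of them. The median SE of its log2 change was 0.61, against 0.17 for the called gene. After ethanol the partner's median level was 3.15 CPM over 7 pairs, under 5 CPM in 5, with median SEs of 0.60 and 0.16. A call itself favours genes with a small SE, so the SEs of called genes are low in part by selection. Why a partner was not called was not tested. The highest partner in both comparisons, Bevul.9G192000, averaged 251 CPM. A further 5 genes called after water and 6 after ethanol belonged to pairs whose other gene was not tested.

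One of these was Bevul.2G139500 (chromosome 2, 41471798 to 41477186, plus strand), whose start lies 21 bases from that of Bevul.2G139400, a model with no read in any library. It ran from 18.3 to 33.4 CPM after ethanol, median 24.7, and from 31.2 to 50.2 CPM with freezing, median 43.1, and rose by 0.79 ± 0.20 on the log2 scale (adjusted p = 0.00485, edgeR). After water it ran from 19.2 to 32.4 CPM, median 23.7, and with freezing from 18.1 to 30.7 CPM, median 26.8, and the log2 change was 0.03 ± 0.20 (adjusted p = 0.966, edgeR). The difference between these 2 responses, 0.76 ± 0.28 on the log2 scale, did not pass (adjusted p = 1.00, edgeR).

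Co-change across the 5 groups was described by Pearson's r between the 2 genes over their 5 group means of log2 CPM. The median r was 0.111 over the 28 divergent pairs, with quartiles of -0.304 and 0.474. It was 0.00235 over 480 convergent pairs (-0.445 and 0.503) and 0.149 over 216 same-strand pairs (-0.402 and 0.614). Leaving out 1 library at a time gave standard errors of 0.369 for the divergent, 0.0761 for the convergent and 0.122 for the same-strand median. The divergent error is larger than the distance of the divergent median from either of the others. Such an error is only a rough guide for a median, and all orientations share the libraries. The difference between these medians was not tested. Without frozen water replicate 2 the divergent median was -0.0510. Each r rests on 5 points that share libraries with those of every other pair, and low genes add noise to it. Divergent pairs spaced farther apart had medians of 0.191 at 1001 to 2000 bases (49.0% of the 210 pairs, those with both genes tested) and 0.138 at 2001 to 5000 bases (454 of 866 pairs).

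Where both genes averaged at least 10 CPM, the median r was 0.449 over 7 of the 28 divergent pairs, -0.170 over 21.9% of the 480 convergent pairs and 0.251 over 54 same-strand pairs. The 7 values ran from -0.512 to 0.988. With the group means removed, the r over 30 libraries had medians of -0.0359, 0.0103 and 0.0422 in divergent, convergent and same-strand pairs. Library-to-library variation thus gave medians near 0 over all tested pairs. Where both genes averaged at least 10 CPM, these medians were -0.0430, 0.0240 and 0.143.

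**Figure D5:**
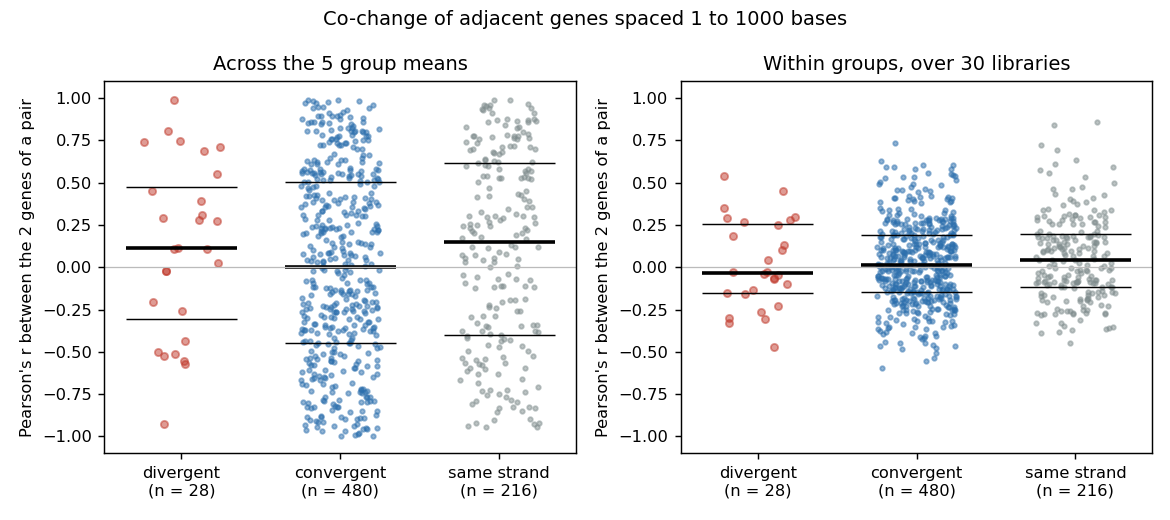
Pearson's r between the genes of each adjacent pair spaced 1 to 1000 bases (vertical axes), over the 5 group means (left) and over 30 libraries after removal of group means (right), by orientation; thick lines are medians and thin lines quartiles. Divergent values over group means run from -0.929 to 0.988, convergent ones from -0.996 to 0.988 and same-strand ones from -0.945 to 0.988.

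The highest r across groups, 0.988, was that of Bevul.8G178600 and Bevul.8G178700, which also had the highest r within groups, 0.539. Bevul.9G126400 and Bevul.9G126500 followed within groups at 0.452, with 0.747 across groups. Bevul.5G087300 and Bevul.5G087400, 271 bases apart, had 0.804 across groups but -0.133 within them. The lowest r across groups, -0.929, was that of Bevul.9G208300 and Bevul.9G208400, 872 bases apart, where the left gene averaged 2.42 CPM.

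In the closest tested pair, r was positive across groups and negative within them. Bevul.2G127600 and Bevul.2G127700 (chromosome 2, 38823134 to 38824435 on the minus strand and 38824436 to 38828976 on the plus strand) abut with no base between them in these models, and RefSeq spaces them 200 bases apart. Their levels were 14.4 and 36.6 CPM, or 11.0 and 8.05 CPM per kb, and their r over the 5 group means was 0.549. Their r within groups was -0.331, among the 2 lowest of the pairs in which both genes averaged at least 5 CPM. The other was Bevul.4G002500 and Bevul.4G002600, 959 bases apart, at -0.159 within groups and 0.307 across them.

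Bevul.2G127700 varied widely within each group, from 17.8 to 69.7 CPM before pretreatment, 12.7 to 57.0 CPM with water, 12.5 to 76.7 CPM with ethanol, 10.0 to 45.4 CPM after water and freezing, and 8.05 to 53.8 CPM after ethanol and freezing. On the log scale the widest gap between successive libraries separated 11 libraries at up to 22.9 CPM from 19 at 30.5 CPM or more. The lower set held 3 of the libraries taken before pretreatment, 2 of the water, 1 of the ethanol, 2 of the frozen water and 3 of the frozen ethanol libraries. Bevul.2G127600, over the same 30 libraries, ran from 4.85 to 23.3 CPM. Neither gene passed in any comparison: their changes were -0.21 ± 0.28 and -0.35 ± 0.46 with freezing after water, and -0.03 ± 0.28 and -0.79 ± 0.47 after ethanol.

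Pretreatment changed few of these genes. Water changed 3 of the 97 (2 higher, 1 lower; 3.09%, against 3.09% of all genes tested), and ethanol changed 3 (1 higher, 2 lower; 3.09%, against 3.77%). These comparisons share the libraries from before pretreatment, so their values are not independent. Bevul.2G030300 (chromosome 2, 4506606 to 4507860, minus strand) ran from 0.847 to 2.02 CPM before pretreatment, median 1.79, from 6.83 to 13.8 CPM after water, median 9.44, and from 3.61 to 20.2 CPM after ethanol, median 7.05. With freezing it ran from 5.33 to 39.0 CPM after water, median 15.6, and from 14.1 to 74.8 CPM after ethanol, median 18.3. All libraries taken after pretreatment lay above all of those taken before.

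It rose by 2.54 ± 0.50 on the log2 scale with water (adjusted p = 0.00179, edgeR) and by 2.57 ± 0.51 with ethanol (adjusted p = 0.00181, edgeR). Freezing after ethanol raised it by a further 1.73 ± 0.46 (adjusted p = 0.00785, edgeR), a call lost without frozen ethanol replicate 6 (adjusted p = 0.0565, edgeR), and the change after water was 0.88 ± 0.45 (adjusted p = 0.251, edgeR). Its partner Bevul.2G030400, 525 bases away, had 11 reads in all. Bevul.9G227300 fell by 0.87 ± 0.16 with water and by 0.67 ± 0.16 with ethanol. Bevul.3G159300 rose by 0.69 ± 0.17 with water, and Bevul.9G011000 fell by 0.58 ± 0.15 with ethanol, a call lost without replicate 1 or 4 from before pretreatment or without ethanol replicate 4.

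Ethanol did not separate from water in these genes, as in nearly all genes tested. None of the 97 passed between ethanol and water, where 0.00708% of all genes did. An unadjusted p was under 0.05 in 1 of them and in 558 of all 14128 genes. None passed between the frozen groups, where 0.106% of all genes did, and the unadjusted counts were 5 and 499. None passed for the difference between the freezing responses, where 0% of all genes did, and the unadjusted counts were 2 and 406. These counts are from edgeR's quasi-likelihood test.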

How the data were processed

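RNA from 30 sugar beet shoot samples was made into libraries by Lasy-Seq, a multiplexed RNA-seq method, from 200 ng of total RNA each, per the labels' protocols. The authors' deposited table gives raw counts per gene, with gene positions and strands. The submitters' processing notes name bcl2fastq, Trimmomatic, HISAT2, featureCounts and DESeq2, and the TAIR10 build of Arabidopsis, whereas the chromosome names in the table are those of EL10_2. Versions and strand settings are not given in the sources used here, so reads from overlapping genes cannot be told apart. The deposited scaled table was not used.

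Counts were filtered by group with filterByExpr and scaled by TMM, and 14128 genes were fitted with edgeR 4.0.16 (R 4.3.3) on 5 group means over all 30 libraries. Tests were 2-sided quasi-likelihood tests with Benjamini-Hochberg adjustment over all genes and a threshold of 0.05. The test gives no SE. The SE printed with a log2 change is approximate, the absolute change divided by the square root of its F statistic. CPM values were computed with edgeR from the TMM-scaled library sizes. For r, log2 CPM used a prior count of 2. Unequal change within a pair was tested with limma 3.58.1 on log2 of the left over the right count, each plus 0.5, over 724 pairs. Both fits were also run on simulated data, in which genes varied independently and the changed genes averaged at least 5 CPM. That run cannot speak to low genes or to neighbours that vary together, and its outcome is not given here. DESeq2 1.42.0 was an alternative. Depth limits precision for low genes, and intervals cover the spread between these samples only.

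The pairs named by rule had both genes at 5 CPM or more on average: those called alike or oppositely in both freezing comparisons (none), called in the within-pair fit in both, spaced most closely, with the most abundant weaker gene, or with the 2 highest and 2 lowest r within groups. The pairs and rules were chosen with earlier results of these data known.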

Additional observations from a re-analysis of the deposited data

Results flagged for a closer look

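In 9 of 130 groups of 6 libraries (26 genes named or called, in 5 groups each), the highest or lowest library lay far from the other 5. Chance flags about 1 in 20 groups, and genes and libraries are not independent. In 3 of the 9 the library was frozen water replicate 6, which held the highest level of genes that fell with freezing: Bevul.9G192100 at 198.5 CPM (the next library at 98.045), Bevul.9G011000 at 117.4 CPM (next 75.6) and Bevul.2G068300 at 42.77 CPM (next 33.8). Among the 16 genes called after water, that library was the frozen one nearest to the water median in 5. Without it, 13 of the 97 tested genes of divergent pairs and 1663 genes in all were called after water. The other highest values were Bevul.1G216800 in water replicate 6 at 5080 CPM, Bevul.4G002500 in ethanol replicate 6 at 31.78 CPM, Bevul.4G002600 in frozen ethanol replicate 2 at 8.228 CPM, and Bevul.9G126500 in replicate 6 from before pretreatment at 97.61 CPM. The lowest values that stood apart were Bevul.4G115300 in frozen ethanol replicate 5 at 227.7 CPM and Bevul.9G165100 in ethanol replicate 4, which had the fewest counts, at 51.9 CPM.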

How the results depend on the processing

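No log2 change of a called gene changed sign under any alternative run, but median r values near 0 did. Pairs with both genes called in the same direction (1 after water, 1 after ethanol) numbered 0 after water with no filter on low counts, 2 with only the compared groups fitted, 2 with DESeq2, and 0 to 2 with 1 library left out. After ethanol they numbered 2 with RLE scaling, 2 with DESeq2, and 0 to 2 with 1 library left out, and 0 at spacings up to 500 bases, with both genes matched to RefSeq, at a RefSeq spacing of 1 to 1000, and without chromosomes 2 and 9. Pairs with 1 gene called (9 after water, 7 after ethanol) numbered 1 and 2 at spacings up to 500 bases, 4 and 4 at the RefSeq spacing, 4 and 4 without chromosomes 2 and 9, and 12 after ethanol with DESeq2. For water pretreatment (0) they numbered 3 with no filter and 3 with DESeq2. Unequal pairs (2 and 1) numbered 0 and 0 both at the RefSeq spacing and without chromosomes 2 and 9, 2 after ethanol with an added count of 2, and 2 to 3 after water and 1 to 2 after ethanol with 1 library left out. Fewer pairs enter where spacing, RefSeq or chromosomes restrict them; otherwise the cause was not tested.

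The median r within groups of divergent pairs (-0.0359) changed sign to 0.0489 with Spearman's coefficient, and ran from -0.0564 to 0.0109 with 1 library left out. That of same-strand pairs was 0.143 at 10 CPM or more and 0.107 at spacings up to 500 bases, and the median r of convergent pairs across groups (0.00235) changed sign to -0.170 at 10 CPM or more and ran from -0.0322 to 0.0179 with 1 library left out. The divergent median across groups (0.111) ran from -0.0510 to 0.273 with 1 library left out. The convergent median within groups (0.0103) was -0.0219 at spacings up to 500 bases. Replicate numbers did not pair the libraries: deviations of same-numbered libraries correlated at -0.0382 to 0.0540 over 60 pairs. With the replicate block, pairs called in the same direction numbered 1 and 1, pairs with 1 gene called 9 and 7, unequal pairs 3 and 1, and the median r within groups of divergent pairs was -0.0800. The RefSeq match, RefSeq spacing, chromosome and 2-library alternatives were added after seeing the data. A planned match on RefSeq strand was not run, since the table used gives none.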
